A study of Mus musculus with 4 samples.

Results

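Ccl3, Ccl4, Ccl5 and Ccr1 were followed as 4 of the 21739 gene symbols with a measurement in the series, and they were chosen by name, through their rows in all 4 count matrices. Ccl3 and Ccl4, also called MIP-1 alpha and MIP-1 beta, and Ccl5, also called RANTES, are CC chemokines, small secreted proteins that bind to glycans on cells and matrix and draw leukocytes along their gradient. Ccr1 is a receptor coupled to inhibitory G proteins that binds Ccl3 and Ccl5 and is used by neutrophils and monocytes to enter inflamed tissue. In skin wounds Ccl3 and Ccl4 are made quickly by activated myeloid cells, whereas Ccl5 is known as a stored or late product of cytotoxic lymphocytes.

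The libraries were single-cell RNA-seq of cells from C57/BL6j mice, 6 weeks old, each with an 8 mm full-thickness wound of the dorsal skin. The Control group held 2 libraries from mice injected with PBS, and the hucMSC-Exo group held 2 libraries from mice injected with 100 micrograms of exosomes (small vesicles) from human umbilical cord mesenchymal stem cells, at 4 sites around the wound every 48 hours. Skin next to the wound was taken on day 7, 1 mouse to a library, per the study's methods. The deposited labels are at odds with this on 1 point, since their tissue field names sections of gut while the cell type field reads skin cells, and the letters in the deposited matrix names pair the libraries by replicate number and not by group. The groups used here are those of the sample titles, and no library was regrouped. Neutrophils, by the marker genes described below, numbered 53 in Control 1, 324 in Control 2, 89 in hucMSC-Exo 1 and 518 in hucMSC-Exo 2. They thus split by replicate number more than by group. The paper reports far more neutrophils in its hucMSC-Exo group than in its control group. Grouped by the letters, the libraries differ more in neutrophils than grouped by the titles, so the titles may not give the treatment. Whether the titles or the letters give it was not tested, and every group comparison below holds for the titles only.

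The matrices of the Control libraries held 1098 and 2422 cells and those of the hucMSC-Exo libraries 1539 and 2119, with between 6657095 and 16950639 unique molecular identifiers (UMIs, each standing for 1 captured RNA molecule) a library. The study's limits, no fewer than 200 and no more than 3000 detected genes with mitochondrial UMIs up to 10%, left 952, 2074, 1416 and 2001 cells in that order, which is also the order of any 4 values listed without their libraries, with median UMIs a cell between 3747 and 4392.5, and 6 barcodes occurred in more than 1 library. Cells were put into classes by fixed marker genes, none of which was a chemokine or a chemokine receptor, so that a class is a gate and not the authors' annotation: 5106 of the 6443 kept cells met 1 gate, 1319 met none and 18 met several. The gates for NKT-like T cells and osteoclast-like macrophages had no cluster of their own, and the DETC gate (dendritic epidermal T cells, a gamma delta T cell of mouse skin) was the largest T cell gate, with 925 cells. Control 1 held 1 gated basophil. Levels are given as UMIs of the gene per 1000000 UMIs of the class in a library (CPM), and only libraries with at least 10 cells of a class were used unless the cell number is given.

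Ccl3, Ccl4 and Ccl5 lie in 1 chemokine cluster of chromosome 11 (build GRCm38), and Ccr1 lies on chromosome 9. Ccl3 is a protein-coding gene at chr11:83647844-83649355 on the minus strand, and Ccl4 is at chr11:83662584-83664683 on the plus strand. The gap of 13228 bases between them holds 0 annotated genes. Ccl5, at chr11:83525778-83530518 on the minus strand, is separated from Ccl3 by 117325 bases and 4 genes. Ccr1 is at chr9:123962124-123968692 on the minus strand. None of the 4 genes overlaps another annotated gene, and the longest identical stretch between any pair of their transcripts was 9 to 13 bases, shorter than a sequencing read, so that reads of the paralogs could be told apart.

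The stretches of 150 bases before the RefSeq transcription starts of Ccl3 (chr11:83649379-83649528, GRCm38.p6) and Ccr1 (chr9:123968693-123968842, GRCm38.p6) are shown because these were the 2 members with a window in the RefSeq promoter set used. Both are written 5′ to 3′ on the minus strand, with capitals marking a match to an NF-kB pattern, GGG and CC with 5 bases of any kind between them.
Ccl3: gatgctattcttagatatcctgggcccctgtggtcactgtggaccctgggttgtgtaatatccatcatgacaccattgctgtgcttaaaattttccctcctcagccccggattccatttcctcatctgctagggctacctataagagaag
Ccr1: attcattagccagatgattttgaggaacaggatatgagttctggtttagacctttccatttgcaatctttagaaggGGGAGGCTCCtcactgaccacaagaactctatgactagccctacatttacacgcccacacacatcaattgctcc
Both strands were searched for this pattern, for the AP-1 pattern TGANTCA and for the interferon response pattern, 2 copies of GAAA with 2 bases of any kind between them. The 1 match was the NF-kB pattern 74 bases before the start of Ccr1, a pattern that 35.4% of the 32851 RefSeq promoter windows of this length hold, against 4.24% for AP-1 and 1.59% for the interferon response pattern. The Ccl3 window held 0 matches to any of the 3. Ccl4 and Ccl5 had no window in that set and were not searched.

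Ccl3 was a transcript of basophils before all other classes. In the 3 libraries with at least 10 gated basophils it stood at 43617 CPM in Control 2, 21849 CPM in hucMSC-Exo 1 and 37114 CPM in hucMSC-Exo 2, a mean of 34194 ± 11174 (SD, n = 3). The single basophil of Control 1 gave 45455 CPM. Ccl3 was detected in 95 of 96 gated basophils, with a median of 113 UMIs and a maximum of 428 UMIs in a cell. The lowest basophil library lay above the highest library of each other class.

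Neutrophils came next for Ccl3, and their range did not reach that of any other class. Their Ccl3 level was 633 CPM in Control 1, 1514 in Control 2, 1548 in hucMSC-Exo 1 and 1212 in hucMSC-Exo 2, with a UMI in 482 of 984 cells. C1q macrophages, named after the complement subunit genes of their gate, followed at 406, 270, 362 and 248 CPM in the same order of libraries. Natural killer (NK) cells held 401, 102, 160 and 108 CPM of Ccl3, a range that overlapped that of C1q macrophages, and from there down to innate lymphoid cells the ranges of neighbouring classes overlapped. Monocytes stood at 107.7 ± 44.5 CPM and conventional dendritic cells (cDC) at 68.4 ± 46.7 CPM (mean ± SD, n = 4).

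**Figure D1:**
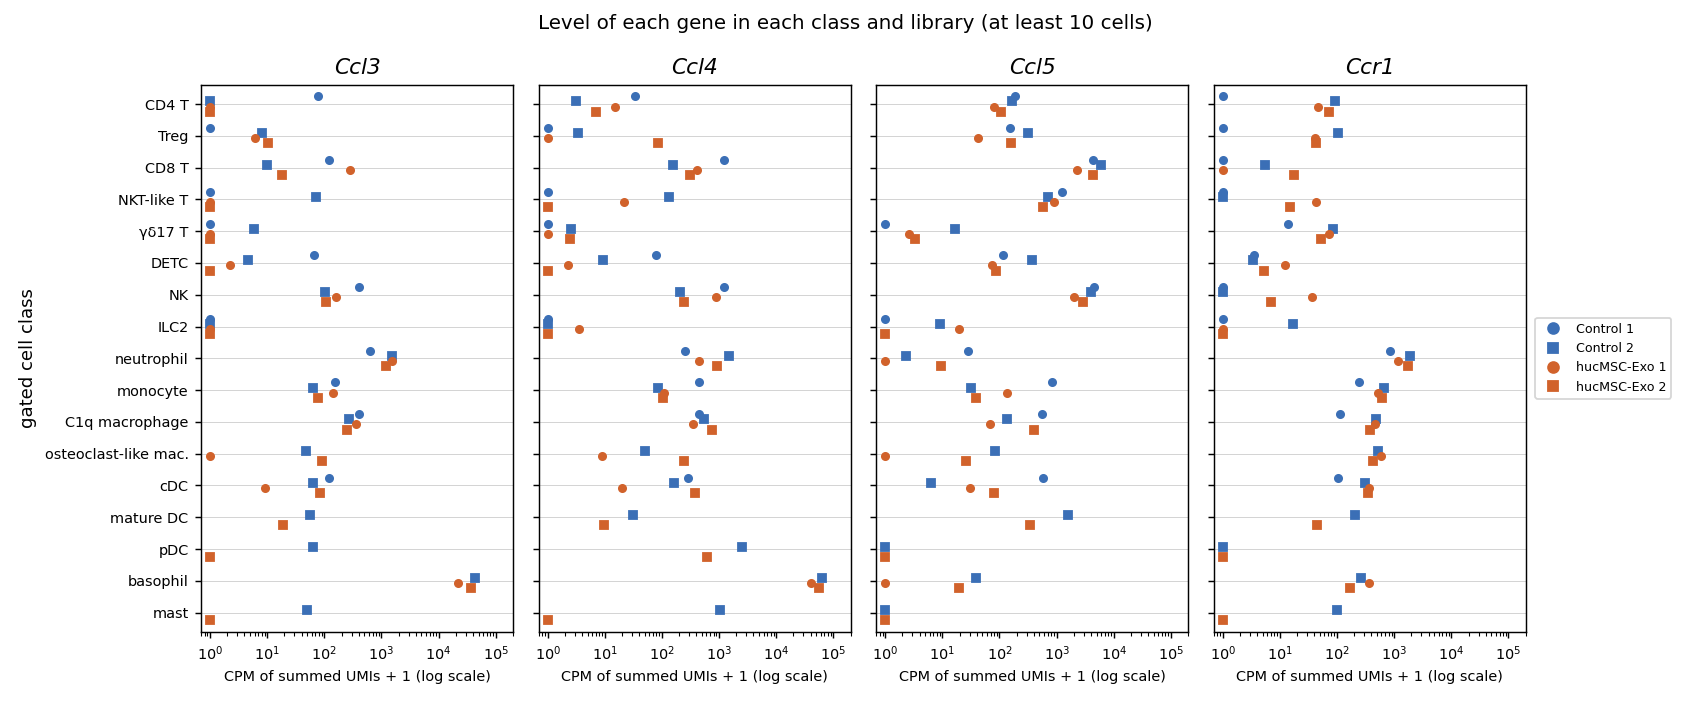
Levels of Ccl3, Ccl4, Ccl5 and Ccr1 in CPM of the class (log axis) for each library with at least 10 cells of a class, 1 panel to a gene and 1 point to a library. The 3 basophil libraries sit at 21849 to 43617 for Ccl3 and 40460 to 64444 for Ccl4, above all other classes, whereas CD8 T and NK cells lead for Ccl5 and neutrophils for Ccr1.

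Ccl3 in T cells was rare and sat in few cells. CD8 T cells gave 120 CPM in Control 1, 9.01 in Control 2, 275 in hucMSC-Exo 1 and 17 in hucMSC-Exo 2, all from 9 of 133 cells, and 1 cell held 30 of the 31 UMIs in hucMSC-Exo 1. Each of those 9 cells also held Ccl4 and Ccl5 UMIs. DETC-gated cells showed 64.9 CPM in Control 1, of which 78 of 79 UMIs came from 1 cell, and 0.825 CPM without that cell. Gamma delta 17 T cells, the IL-17-producing gamma delta cells of the dermis, held Ccl3 in 2 of 550 cells, and group 2 innate lymphoid cells (ILC2) in 0 of 126 cells, which allows a level of up to 4.64 CPM in their sum. These last classes served as the measure of free RNA for the ligands, since the gates for fibroblasts and endothelial cells held 0 cells and the 9 keratinocyte-gated cells held 48 Ccl3 and 107 Ccl4 UMIs, and they were chosen after their values had been seen.

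Ccl4 shared the basophil peak. It reached 64444 CPM in Control 2, 40460 in hucMSC-Exo 1 and 57143 in hucMSC-Exo 2, a mean of 54016 ± 12294 (SD, n = 3), and was detected in 94 of 96 cells with a median of 179.5 and a maximum of 627 UMIs. Ccl3 and Ccl4 together made up 10.8%, 6.23% and 9.43% of all basophil UMIs in these libraries. Across basophils the log2 levels of the pair had a Pearson correlation of 0.67 in Control 2 (58 cells), 0.86 in hucMSC-Exo 1 (20 cells) and 0.55 in hucMSC-Exo 2 (17 cells), given as a description, since both values of a cell share its depth.

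Below basophils the order for Ccl4 differed from that for Ccl3. Plasmacytoid dendritic cells (pDC), known as interferon producers, held 2524 CPM of Ccl4 in Control 2 (12 cells) and 604 CPM in hucMSC-Exo 2 (14 cells), with a UMI in 27 of all 39 pDC-gated cells. A single cell gave 108 of the 280 UMIs in Control 2. The same 39 cells held Ccl3 in 1 cell and Ccl5 and Ccr1 in 0 cells, the last allowing up to 10.3 CPM in their sum. With no upper limit on genes the mean level in pDC was 63 CPM of Ccl5 and 9 CPM of Ccr1. Neutrophils followed at 257, 1485, 452 and 933 CPM of Ccl4, which overlapped pDC, NK and CD8 T cells.

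NK and CD8 T cells carried Ccl4 at levels that varied widely between libraries. NK cells gave 1202 CPM in Control 1, 211 in Control 2, 890 in hucMSC-Exo 1 and 240 in hucMSC-Exo 2, and CD8 T cells gave 1218, 153, 418 and 311 CPM. In both classes Control 1 was highest and Control 2 lowest, so that the spread within the Control group covered the hucMSC-Exo group. Ccl4 was detected in 37 of 140 NK cells and 43 of 133 CD8 T cells, against 3 of 550 gamma delta 17 T cells and 1 of 126 ILC2. C1q macrophages held 453, 539, 351 and 738 CPM, cDC 284, 161, 19.1 and 376 CPM, and monocytes 437, 83.7, 108 and 105 CPM. The mast cell value of 1043 CPM in Control 2 came from 21 UMIs in 1 of 14 cells.

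**Figure D2:**
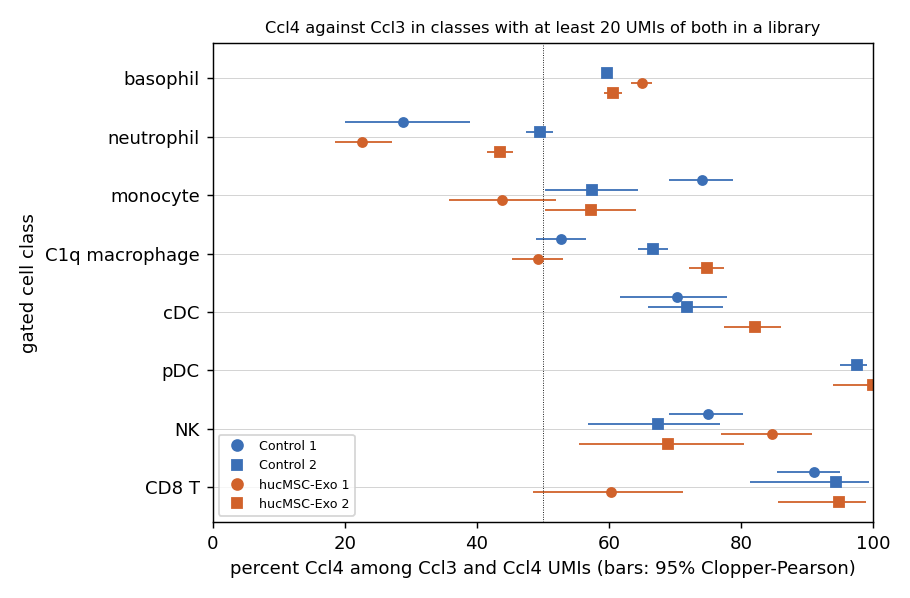
Ccl4 as a percent of the summed Ccl3 and Ccl4 UMIs of a class in each library, with exact 95% intervals that cover counting error only. Basophil libraries sit at 59.6 to 64.9%, neutrophil libraries at 22.6 to 49.5%, and pDC at 97.6 and 100%.

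The balance of the pair, Ccl4 as a share of the summed UMIs of Ccl3 and Ccl4, separated the classes further. In basophils it was 59.6%, 64.9% and 60.6% in the 3 libraries. In neutrophils it was 28.9% in Control 1, 49.5% in Control 2, 22.6% in hucMSC-Exo 1 and 43.5% in hucMSC-Exo 2, below each basophil library. Over all libraries the share was 75.2% in NK cells, 84.8% in CD8 T cells and 98.5% in pDC. In C1q macrophages it was 52.7%, 66.7%, 49.2% and 74.8%. In neutrophils and C1q macrophages both replicate 2 libraries lay above both replicate 1 libraries, in each group. The exact intervals of these shares cover counting error only, since UMIs of 1 cell are not independent.

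In the 3 libraries with at least 10 gated basophils, these few cells held 48.5% or more of the Ccl3 and Ccl4 UMIs. Basophils were 2.80% of the kept cells in Control 2, 1.41% in hucMSC-Exo 1 and 0.85% in hucMSC-Exo 2, and held 80.5%, 54.9% and 48.5% of all Ccl3 UMIs and 79.1%, 62.6% and 51.8% of all Ccl4 UMIs. In Control 1 the single basophil held 19.3% of Ccl3 and 20.5% of Ccl4 UMIs, and monocytes and macrophages held 43.3% and 35.0%. Neutrophils held 35.4% of Ccl3 UMIs in hucMSC-Exo 2, against 7.02% to 13.3% in the other libraries. Over all kept cells Ccl3 stood at 206, 1011, 346 and 453 CPM and Ccl4 at 378, 1520, 563 and 654 CPM in the 4 libraries. Control 2, with the most basophils, was highest for both and Control 1, with 1 basophil, lowest, but hucMSC-Exo 1 lay below hucMSC-Exo 2 with more basophils (20 against 17). How many basophils a library holds can depend on the tissue and on the preparation, and these cannot be told apart with 2 libraries a group.

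**Figure D3:**
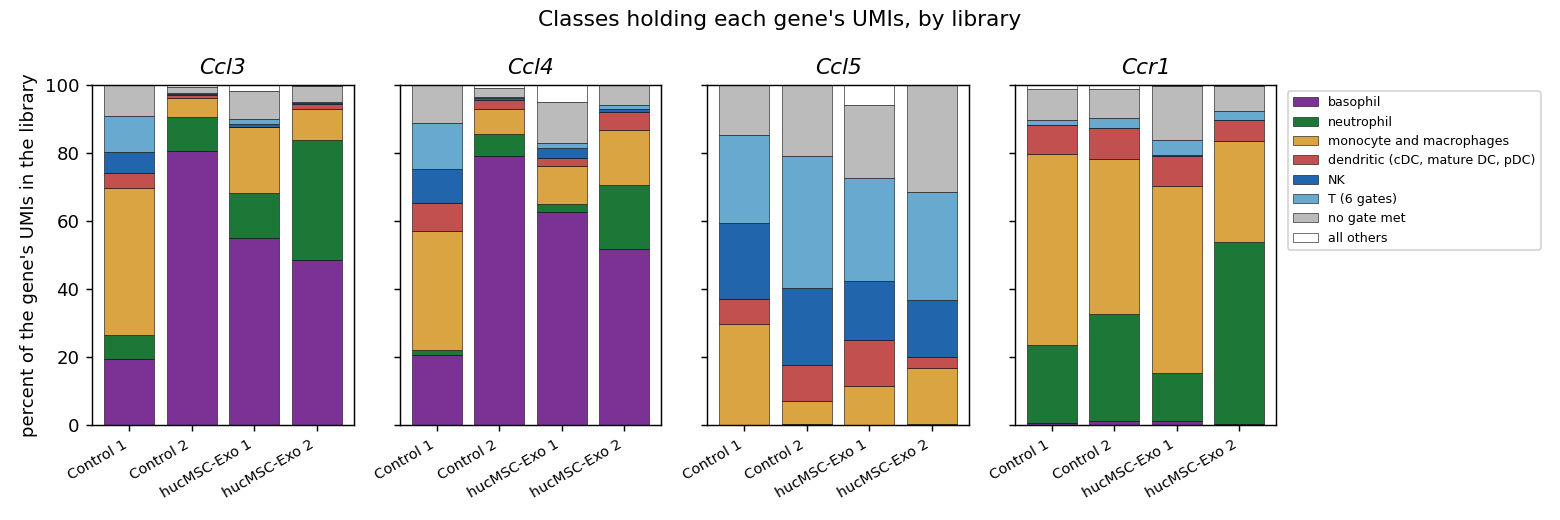
Share of each library's UMIs of Ccl3, Ccl4, Ccl5 and Ccr1 (percent) by the class of the cells that held them, 1 stacked bar to a library. Basophils hold 48.5 to 80.5% of Ccl3 UMIs in the 3 libraries with at least 10 of them, whereas T and NK cells hold most of the Ccl5 that was in a gate, and neutrophils, monocytes and macrophages most Ccr1.

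Ccl5 was a transcript of CD8 T and NK cells. CD8 T cells held 4376 CPM in Control 1, 6038 in Control 2, 2284 in hucMSC-Exo 1 and 4297 in hucMSC-Exo 2, with a UMI in 87 of 133 cells. NK cells held 4512, 3932, 1986 and 2948 CPM, with a UMI in 113 of 140 cells. The ranges of both classes overlapped. All libraries of either lay above those of the next classes with at least 10 cells, mature dendritic cells and NKT-like T cells.

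Among the other T cell gates NKT-like T cells were highest for Ccl5, at 1255 CPM in Control 1, 698 in Control 2, 889 in hucMSC-Exo 1 and 586 in hucMSC-Exo 2. CD4 T cells held 187, 167, 78.7 and 104 CPM, in 26 of 226 cells, and regulatory T cells (Treg) 149, 313, 40.4 and 157 CPM, in 34 of 169 cells. Gamma delta 17 T cells lay at 0 to 15.9 CPM, in 4 of 550 cells. The CD4 T cells with a Ccl5 UMI carried a mean of 0.923 NK marker genes each, against 0.155 in those without.

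DETC-gated cells stood between, but on very few cells. Their Ccl5 level was 116 CPM in Control 1, 366 in Control 2, 71.7 in hucMSC-Exo 1 and 84.7 in hucMSC-Exo 2, from 23 of 925 cells. In the same order the top cell held 47.5%, 31.8%, 81.0% and 88.1% of these UMIs, and without it the levels were 61.1, 252, 13.7 and 10.1 CPM.

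Among myeloid classes the mean level of Ccl5 was highest in mature dendritic cells, the Fscn1-positive cells that carry antigen to lymph nodes. Their range overlapped those of C1q macrophages, monocytes and cDC, and in hucMSC-Exo 2 they lay below C1q macrophages (335 against 401 CPM). They held 1577 CPM in Control 2 (34 cells) and 335 CPM in hucMSC-Exo 2 (13 cells), with a UMI in 23 of all 58 cells, and the 6 such cells of hucMSC-Exo 1 gave 3262 CPM. Of the 58 cells, 24 lay in the cluster led by Ccl22 and Fscn1 and 24 in the main cDC cluster. With stricter gates 29 cells were left, and only Control 2 kept at least 10 (17 cells), with 2955 CPM of Ccl5, above the lowest NK library, and no Ccl3 or Ccl4 UMI. C1q macrophages held 545, 136, 66.4 and 401 CPM, monocytes 843, 30.6, 134 and 38.1 CPM and cDC 571, 5.33, 30.04 and 80.5 CPM. In each of these 3 classes Control 1 was the highest library, and in monocytes and cDC it lay more than 5 times above the next. A Cd3 gene, the mark of T cells, was found in 2 of the 46 monocytes and 2 of the 106 C1q macrophages with Ccl5. Neutrophils held Ccl5 in 8 of 984 cells, basophils in 2 of 96 and pDC in 0 of 39.

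**Figure D4:**
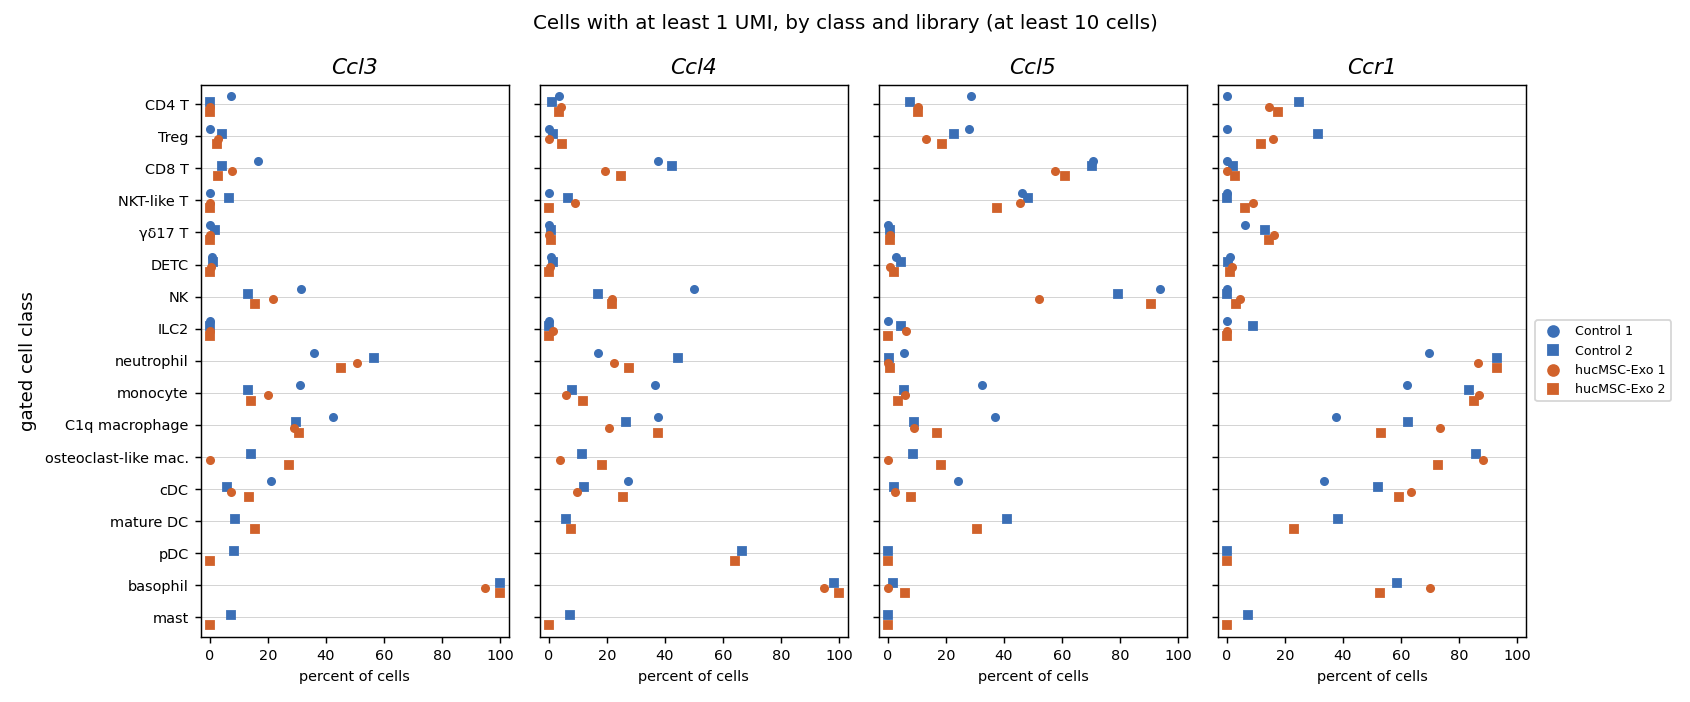
Share of cells with at least 1 UMI of Ccl3, Ccl4, Ccl5 and Ccr1 (percent) in each class and library with at least 10 cells of the class. Basophil libraries sit at 95 to 100% for Ccl3 and Ccl4 and neutrophils at 91.3% over all libraries for Ccr1, whereas ILC2 and gamma delta 17 T cells stay near 0 for the ligands.

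Ccr1 followed the myeloid lineage and was highest in neutrophils. They held 844 CPM in Control 1, 1929 in Control 2, 1185 in hucMSC-Exo 1 and 1755 in hucMSC-Exo 2, with a UMI in 898 of 984 cells, and lay above all libraries of every other class. Osteoclast-like macrophages, gated on protease genes such as Ctsk and Acp5, held 522 CPM in Control 2, 588 in hucMSC-Exo 1 and 431 in hucMSC-Exo 2. Monocytes held 243, 661, 519 and 621 CPM, C1q macrophages 113, 480, 453 and 373 CPM and cDC 105, 303, 360 and 342 CPM. From osteoclast-like macrophages down to basophils the ranges of neighbouring classes overlapped.

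Basophils, the main source of Ccl3, carried Ccr1 at 356 CPM in hucMSC-Exo 1, 262 in Control 2 and 168 in hucMSC-Exo 2, in 58 of 96 cells. Lymphocytes held little: NK cells had a Ccr1 UMI in 2 of 140 cells, CD8 T cells in 2 of 133 and ILC2 in 2 of 126. The exceptions were gamma delta 17 T cells, at 13, 84.3, 71.1 and 51.4 CPM, CD4 T cells, at 0, 89.5, 46.3 and 70.3 CPM, and Treg, at 0, 104, 40.4 and 42.7 CPM. DETC-gated cells in the same libraries lay between 2.40 and 11.1 CPM. In neutrophils, monocytes, C1q macrophages, cDC, gamma delta 17 T cells, CD4 T cells and Treg alike Control 1 was the lowest library for Ccr1, and over all kept cells it held 83.9 CPM against 253 to 434 CPM in the other 3.

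Within C1q macrophages the ligands and the receptor were found in partly different cells. Among the macrophages with Ccl3, Ccl4 was found in 62.2%, 61.2%, 56.4% and 77.4% in the 4 libraries, against 19.7%, 11.9%, 6.25% and 20% of those without. Ccr1 was found in 45.9% of those with Ccl3 and 69.7% of those without in Control 2, in 61.5% and 78.1% in hucMSC-Exo 1, and in 30.2% and 63.3% in hucMSC-Exo 2. In Control 1 the shares were 37.8% and 37.7%. Median UMIs a cell were 7223.5 and 7090 with and without Ccl3 over all libraries. In mature dendritic cells Ccr1 was found in 1 of 23 cells with Ccl5 and in 51.4% of the 35 without.

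The classes were then compared within libraries, to ask which class carried more of each gene at the level of whole libraries. UMIs were summed by library and class and tested with edgeR's quasi-likelihood test with the library as a block. All p-values are Benjamini-Hochberg adjusted over all genes tested in a contrast, and a member is called where that value is under 0.05. Each difference is on the log2 scale with its standard error. The gates differ in many genes, so that a large share of all genes was called in some contrasts.

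Basophils differed from neutrophils in all 3 members that could be tested, where 51.5% of all genes were called. Ccl3 was higher by 4.78 ± 0.42 (edgeR adjusted p = 4.39e-13) and Ccl4 by 6.17 ± 0.44 (edgeR adjusted p = 1.18e-15), each in 3 of 3 libraries. Ccr1 was lower, with a log2 difference of -2.39 ± 0.34 (edgeR adjusted p = 9.89e-08), in all 3 libraries. Against C1q macrophages, where 30.5% of all genes were called, 3 of 4 members were called: Ccl3 was higher by 7.26 ± 0.56 (edgeR adjusted p = 1.70e-36), Ccl4 was higher by 7.10 ± 0.57 (edgeR adjusted p = 2.35e-33) and Ccl5 was lower, at -2.12 ± 0.56 (edgeR adjusted p = 0.00105). The Ccl5 call was lost without hucMSC-Exo 2 (-1.39, edgeR adjusted p = 0.151). Ccr1 did not pass, at -0.31 ± 0.38 (edgeR adjusted p = 0.590). With 3 libraries, the p-values against C1q macrophages lean on the spread shared by all genes tested and do not measure 1 gene's own spread. The median over all genes was -0.15 against neutrophils and -0.43 against C1q macrophages, so that these values are to be read against that shift.

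Neutrophils differed from monocytes in 4 of 4 members, where 54.5% of all genes were called. Ccl3 (3.86 ± 0.38), Ccl4 (2.66 ± 0.62) and Ccr1 (1.78 ± 0.18) were higher and Ccl5 was lower (-3.57 ± 0.46), with edgeR adjusted p between 7.93e-07 and 0.00193. Monocytes in turn lay below C1q macrophages for Ccl3 (-1.57 ± 0.15) and Ccl4 (-1.74 ± 0.32) and above them for Ccr1 (0.68 ± 0.14), 3 of 4 members called against 24.3% of all genes, and the calls for Ccl4 and Ccr1 were lost without the library block (edgeR adjusted p = 0.0718 and 0.374). Osteoclast-like macrophages, a contrast with only 2.43% of all genes called, lay below C1q macrophages for Ccl3 (-3.05 ± 0.52, edgeR adjusted p = 0.00536) and Ccl4 (-3.06 ± 0.40, edgeR adjusted p = 0.00105), 2 of 4 members, while Ccr1 did not pass (0.24 ± 0.18). The Ccl3 call was lost with DESeq2 (adjusted p = 0.525).

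cDC lay below C1q macrophages for all 3 ligands, where 37.4% of all genes were called. The differences were -2.02 ± 0.29 for Ccl3, -1.32 ± 0.28 for Ccl4 and -1.45 ± 0.40 for Ccl5, with edgeR adjusted p of 3.10e-05, 0.00116 and 0.00777, and Ccr1 did not pass at -0.13 ± 0.14. The calls for Ccl4 and Ccl5 were lost with DESeq2 and without the library block, and that for Ccl5 also without hucMSC-Exo 2 (edgeR adjusted p = 0.0874). Mature dendritic cells could not be tested against cDC, since only 2 libraries held at least 10 of them.

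NK cells exceeded CD4 T cells in all 3 ligands, where 21.1% of all genes were called: Ccl3 by 4.00 ± 0.58, Ccl4 by 5.66 ± 0.27 and Ccl5 by 4.71 ± 0.13, with edgeR adjusted p of 0.000216, 1.74e-08 and 4.41e-11, each in 4 of 4 libraries. The Ccl3 call was lost when Leiden clusters took the place of gates (1.03, edgeR adjusted p = 0.175). Against ILC2, where 20.7% of all genes were called, all 3 ligands passed as well. As ILC2 held no Ccl3 UMI, that difference is best given as a bound, at least 37.7-fold higher over the 3 counts allowed in the ILC2 sum. For Ccl4, with 1 UMI in ILC2, the ratio was 343 with a counting interval of 61.2 to 13583, and for Ccl5 the log2 difference was 7.81 ± 0.34.

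Against DETC-gated cells, where 31.8% of all genes were called, NK cells were higher in Ccl3 by 4.03 ± 0.40, in Ccl4 by 5.34 ± 0.38 and in Ccl5 by 4.84 ± 0.23, all with edgeR adjusted p under 0.05 in 4 of 4 libraries. NK and CD8 T cells were not separated: 0 of 3 members were called against 11.7% of all genes, with Ccl3 at 1.23 ± 0.45 (edgeR adjusted p = 0.106), Ccl4 at 0.30 ± 0.21 (edgeR adjusted p = 0.468) and Ccl5 at -0.32 ± 0.11 (edgeR adjusted p = 0.0836). At an unadjusted p under 0.05 there were 2, Ccl3 and Ccl5, and DESeq2 called 0. The Ccl5 difference changed sign under stricter gates (0.04).

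CD8 T cells were higher than CD4 T cells in Ccl4 by 5.35 ± 0.29 (edgeR adjusted p = 1.38e-09) and in Ccl5 by 5.08 ± 0.12 (edgeR adjusted p = 3.29e-15), 2 of 2 members tested against 7.91% of all genes. NKT-like T cells were higher than CD4 T cells in Ccl5 by 2.64 ± 0.23 (edgeR adjusted p = 3.64e-06), 1 of 1 against 4.06%. Treg and CD4 T cells did not differ beyond the error in Ccl5 (0.19 ± 0.25, edgeR adjusted p = 0.728), 0 of 1 against 13% of all genes. DETC-gated cells were higher than gamma delta 17 T cells in Ccl5 by 4.71 ± 0.29 (edgeR adjusted p = 2.63e-11), 1 of 1 against 47.1%. With Leiden clusters in place of gates this last difference turned to -2.72 (edgeR adjusted p = 0.000962), and its 23 cells with Ccl5 have been described above.

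The question of the study's design was whether the exosome injections changed these genes within a class. It could be asked only for the groups of the sample titles, which the letters of the matrix names do not follow. Group tests were possible in 12 classes, and basophils, mature dendritic cells, pDC, mast cells and osteoclast-like macrophages could not be tested because fewer than 2 Control or hucMSC-Exo libraries held 10 of their cells. With all libraries, the filter on low counts and no replicate block, no member was called in any of the 12 by edgeR or by DESeq2. Nearly no gene was: edgeR called 0.0989% of genes in CD8 T cells, 0.0141% in DETC-gated cells and 0% in the other 10, with 53 to 338 genes a class at an unadjusted p under 0.05. In simulated libraries of the DETC comparison the test recovered 11.7% of changes of 1 and 85.4% of changes of 2 on the log2 scale. Every gene there had the same set spread (dispersion 0.05), and only genes of at least 10 UMIs a library on average were changed. Even so, a change of 2-fold would mostly be missed. These shares do not carry over to the members, since the standard error of Ccl5 between groups ran from 0.22 in NK cells to 1.45 in cDC.

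Ccl5 was the member with 1 direction over the most classes. Its fitted log2 change from Control to hucMSC-Exo was below 0 in 9 of 9 classes tested, from -2.22 in monocytes to -0.46 in NKT-like T cells, with a median of -0.95, and 5 of the 9 had an unadjusted p under 0.05. Of all genes tested, 75 of 3452 in CD4 T, 93 of 3072 in Treg and 102 of 2022 in CD8 T cells had such a p. In DETC-gated cells they were 338 of 7105 and in NK cells 53 of 2066. In the classes where Ccl5 had none they were 66 of 1054 (NKT-like T), 128 of 6128 (monocytes), 82 of 7012 (C1q macrophages) and 63 of 4714 (cDC). The share of all genes below 0 in all of these classes was not counted. The Ccl5 levels of the libraries did not overlap between groups in 4 of the 9: CD8 T cells (-0.73 ± 0.23, edgeR adjusted p = 0.781), NK cells (-0.77 ± 0.22, edgeR adjusted p = 0.996), CD4 T cells (-0.95 ± 0.32, edgeR adjusted p = 0.999) and DETC-gated cells (-1.60 ± 0.43, edgeR adjusted p = 0.824). Among all genes tested the libraries of the groups did not overlap in 34.6%, 28.5%, 30.9% and 32.5% in these classes, and in the other 5 in 22.3% (C1q macrophages), 27.9% (cDC), 29% (monocytes), 30.6% (Treg) and 40.1% (NKT-like T cells). The 9 classes come from the same 4 mice and are not independent, and no value passed the adjustment over all genes.

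**Figure D5:**
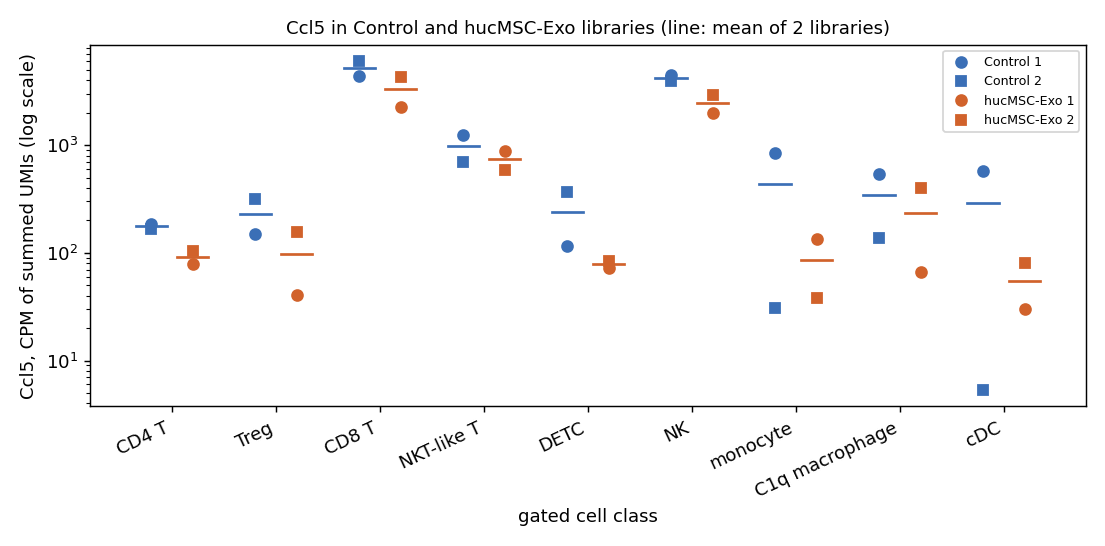
Ccl5 level (CPM of the class, log axis) in Control and hucMSC-Exo libraries for the classes in which it was tested, 1 point to a library. The groups do not overlap in CD8 T, NK, CD4 T and DETC-gated cells, and Control 1 is the highest library in monocytes (843), C1q macrophages (545) and cDC (571).

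In the myeloid classes the direction of Ccl5 depended on single libraries. Leaving out a library leaves 1 sample in a group, with no spread of its own, so only the size of the change is given for such fits. Without Control 1 the log2 change became 1.57 in monocytes, 0.78 in C1q macrophages and 3.41 in cDC, and it became 0.02 in NKT-like T cells. Without hucMSC-Exo 1 it was 0.15 in C1q macrophages. Without Control 2 it was -3.17 in monocytes and -3.20 in cDC, and without hucMSC-Exo 2 it was -2.27 in C1q macrophages. In CD4 T, Treg, CD8 T, NK and DETC-gated cells it stayed below 0 without any single library. Leaving out hucMSC-Exo 2 gave -1.30 in CD8 T cells, -1.14 in NK cells and -2.54 in Treg. Leaving out Control 1 gave -2.25 in DETC-gated cells and -1.65 in Treg. In DETC-gated cells the transcript was held by 8 and 9 cells in the Control libraries and by 2 and 4 cells in the hucMSC-Exo libraries. Without each library's top cell both Control levels (61.1 and 252 CPM) lay above both hucMSC-Exo levels (13.7 and 10.1 CPM). Removing 1 cell takes a larger part of the few hucMSC-Exo cells, so these levels are no check of the group difference.

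Ccr1 lay above 0 in 6 of 6 classes tested, between 0.02 in CD4 T cells and 0.75 in cDC, with 0 classes at an unadjusted p under 0.05. In cDC the groups did not overlap (0.75 ± 0.45, edgeR adjusted p = 1.00), as for 27.9% of all genes there, and in the others they overlapped, where 27% of all genes in neutrophils and 31% in gamma delta 17 T cells did not. Without Control 1, the library with the lowest Ccr1, the value turned below 0 in neutrophils (-0.42), monocytes (-0.10), C1q macrophages (-0.15), gamma delta 17 T cells (-0.48) and CD4 T cells (-0.60). Without Control 2 it was 1.37 in monocytes, 1.81 in cDC and 2.26 in gamma delta 17 T cells. Without hucMSC-Exo 1 it was -0.10 in gamma delta 17 T cells, and without hucMSC-Exo 2 -0.40 in CD4 T cells. Ccl3 was above 0 in 3 and below 0 in 3 of 6 classes, from -0.87 in NK cells to 1.21 in CD8 T cells. Ccl4 was below 0 in 5 of 6, from -1.15 in monocytes to 0.13 in C1q macrophages, and in neutrophils it was -0.34 ± 0.60 (edgeR adjusted p = 0.999). With 1 library left out, Ccl3 was 2.26 in CD8 T cells without hucMSC-Exo 2. Ccl4 without Control 2 was -1.91 in CD8 T cells and -1.89 in monocytes. The direction of Ccl3 turned in NK, CD8 T cells, neutrophils, monocytes and C1q macrophages, and that of Ccl4 in all 6 classes, when 1 library was left out. For basophils the levels in Control 2 (43617 CPM of Ccl3, 58 cells) and in the hucMSC-Exo libraries (21849 and 37114 CPM, 20 and 17 cells) can only be set side by side.

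A list of 37 other genes that act with these ligands and receptors was read in the same fits. It holds other ligands of Ccr1 and related receptors, scavengers, signalling proteins such as the G protein subunit Gnai2 and the Rgs genes that end G protein signals, glycan carriers such as serglycin (Srgn), transcription factors of the ligand genes and factors of their mRNA decay. In the 12 group tests 0 of 12 to 31 testable genes were called by edgeR, and 24 of 269 tests had an unadjusted p under 0.05. Among all genes the share with such a p ran from 82 of 7012 in C1q macrophages to 66 of 1054 in NKT-like T cells. It was smaller in each class than in the list as a whole. The 269 tests repeat the same genes in the same 4 mice and are not independent. The median change of the list lay between -0.27 and 0.58 against medians of all genes between -0.05 and 0.02. Srgn, which packs chemokines into granules, was among the 2 most abundant genes of the list in 11 of the 12 classes, with changes from -0.20 to 0.46 and standard errors up to 0.51, and Rgs1 in 6 classes, from -0.13 to 1.08.

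Between basophils and neutrophils 9 of 21 testable genes of the list were higher and 4 lower, again where 51.5% of all genes were called. The other ligands of Ccr1 made by myeloid cells were higher, Ccl9 by 6.92 ± 0.39 and Ccl6 by 4.03 ± 0.36, as were Rgs1 (6.87 ± 0.40), Rgs2 (4.08 ± 0.34) and the arrestin Arrb2 (1.56 ± 0.46). The transcription factors Egr1 (2.23 ± 0.37), Rel (1.54 ± 0.33) and Nfkb1 (1.24 ± 0.32) were higher and Rela was lower (-1.37 ± 0.57). Of the decay factors, Zfp36 was higher (1.56 ± 0.33) and Zfp36l1 lower (-1.07 ± 0.38). The hyaluronan receptor Cd44 (-2.50 ± 0.34) and the receptor gene Ccrl2 (-1.57 ± 0.32) were lower too, and Srgn (0.16 ± 0.33) and Gnai2 (-0.01 ± 0.30), the most abundant of the rest, did not pass. All called genes of the list had edgeR adjusted p under 0.05. Against C1q macrophages 11 genes were higher and 9 lower of 31, where 30.5% of all genes were called, and the ligands split: Ccl6 (5.96 ± 0.46) and Ccl9 (3.89 ± 0.40) were higher in basophils, Ccl2 (-2.45 ± 0.46), Ccl7 (-4.31 ± 0.58) and Ccl8 (-6.20 ± 0.52) higher in macrophages.

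In 3 other myeloid contrasts Ccl2, Ccl7 and Ccl8 were called in 1 direction. Ccl2, Ccl7 and Ccl8, which draw monocytes, were lower in osteoclast-like macrophages (-4.20 ± 0.29, -3.85 ± 0.49 and -4.41 ± 0.64), in monocytes (-1.70 ± 0.25, -3.24 ± 0.39 and -5.18 ± 0.47) and in cDC (-2.73 ± 0.21, -2.15 ± 0.22 and -1.99 ± 0.27), each against C1q macrophages. For osteoclast-like macrophages 1 of 30 list genes was higher and 4 lower, where 2.43% of all genes were called. For monocytes 4 of 31 were higher and 11 lower (24.3% of all genes called), and for cDC 5 of 31 were higher and 16 lower (37.4% of all genes called). Between neutrophils and monocytes 8 of 29 were higher and 6 lower (54.5% of all genes called), with Ccrl2 at 3.97 ± 0.42 and Srgn at 2.58 ± 0.19 among the higher ones and Ccl9 at -3.44 ± 0.27 and Ccl8 at -2.43 ± 0.39 among the lower ones.

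The lymphocyte contrasts are given beside the share of all genes called in each. Between NK and CD8 T cells 2 of 18 list genes were lower (11.7% of all genes called), Cd44 (-0.89 ± 0.19) and the G protein subunit Gng2 (-1.17 ± 0.22). Between NK and CD4 T cells (21.1% of all genes called) 1 of 20 was higher, Tbx21 (2.67 ± 0.44), which encodes T-bet and is itself a marker of the NK gate, and 5 were lower: Cd44 (-1.21 ± 0.17), Gng2 (-1.09 ± 0.22), Nfkb1 (-1.03 ± 0.22), the syndecan Sdc4 (-1.30 ± 0.30) and Srgn (-0.89 ± 0.15). CD8 T cells were lower than CD4 T cells in 3 of 19 (7.91% of all genes called), Nfkb1 (-0.91 ± 0.20), Sdc4 (-1.28 ± 0.38) and Srgn (-0.64 ± 0.11). NKT-like T cells were higher than CD4 T cells in 1 of 18 (4.06% of all genes called), Rgs2 (1.10 ± 0.20). Treg were higher than CD4 T cells in 4 of 18 (13% of all genes called), Ccrl2 (2.45 ± 0.37), Zfp36l1 (1.24 ± 0.19), Sdc4 (0.92 ± 0.21) and Rel (0.80 ± 0.18). Against ILC2, NK cells had 1 list gene higher and 9 lower of 16 (20.7% of all genes called), and against DETC-gated cells 6 higher and 6 lower of 25 (31.8% of all genes called). DETC-gated cells had 6 higher and 10 lower of 26 against gamma delta 17 T cells (47.1% of all genes called).

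The genes whose levels were most like those of each member were read across the 17 classes, over 5478 genes, as the Pearson correlation of mean log2(CPM + 1), which describes 17 points from 4 shared libraries. For Ccl3 they were Ccl4 (0.89), the aquaporin gene Aqp9 (0.88), the potassium channel gene Kcnj2 (0.85), Arrdc3 (0.84) and the tetraspanin gene Cd53 (0.83). For Ccl4 they were Ccl3, Arrdc3 (0.75), Aqp9 (0.75), Cd53 (0.74) and Selenon (0.72). For Ccl5 they were AW112010 (0.82), highest in NK cells, Serpina3g (0.79), Itga1 (0.78), Calhm6 (0.78) and Arrdc1 (0.78). For Ccr1 they were the inflammasome sensor gene Nlrp3 (0.93), the chemokine gene Cxcl2 (0.92), the cystine transporter gene Slc7a11 (0.91), Srxn1 (0.91) and Tlr2 (0.91), with highest classes that ranged from basophils and neutrophils to monocytes and C1q macrophages.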

How the data were processed

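Single-cell RNA-seq was deposited as 4 matrices of UMI counts, which the authors made with Cell Ranger 6.1.2 on mm10 and did not normalize. The study's limits of 200 to 3000 genes and at most 10% mitochondrial UMIs were applied. Scrublet marked 0.466% of 6443 cells and was taken not to have worked, so no doublet was removed. Cells were gated by 24 marker lists (python 3.11.15, scanpy 1.11.5), and the pDC gate's precedence was set after class sizes and first values were seen. UMIs were summed by library and class (at least 10 cells) and tested with edgeR 4.0.16 (quasi-likelihood, TMM, filterByExpr, Benjamini-Hochberg, limma 3.58.1, R 4.3.3), adjusted over all genes, without a replicate block between groups and with library as a block between classes. The test was checked on simulated data. Alternatives included DESeq2 1.42.0, Leiden clusters, stricter gates, no filter, no upper gene limit and leaving out each library. Share intervals are exact Clopper-Pearson at 95% and cover counting error only.

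The members and lists were chosen with earlier results of these data known. The named genes were the 4 members, the 5 most alike for each among genes of at least 50 CPM in a class, and the list of 37. The naming rule asked for the value of every list gene that passed; of 142 such values those of the lymphocyte contrasts with up to 6 calls, of basophils against neutrophils and of the ligands are printed, the rest as counts. Fibroblasts and keratinocytes, intended as the measure of free RNA, held too few cells. Each library was 1 mouse. Between groups the p-values rest on the spread between mice, and between classes on the spread of the class difference within mice. The quasi-likelihood test estimates that spread with the help of all genes tested. In contrasts with 3 libraries, such as basophils against C1q macrophages, p-values are therefore not a measure of 1 gene's own spread. No column of per-sample values was left unused.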

Additional observations from a re-analysis of the deposited data

Results flagged for a closer look

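The difference in Ccl4 between NK and DETC-gated cells was larger in hucMSC-Exo than in Control by 5.16 on the log2 scale (SE 0.77, edgeR adjusted p = 0.000676 for the interaction), and it was picked out because it was the 1 of 29 tests of such a difference for the members that passed. Ccl4 in DETC-gated cells stood at 8.40 CPM in Control 2, 1.24 CPM in hucMSC-Exo 1 and 0 CPM in hucMSC-Exo 2. In Control 1, 94 of 96 UMIs came from 1 of 302 cells, and the level was 78.9 CPM with that cell and 1.65 CPM without it. Whether the difference rests on that cell was not tested. The same cell held 78 Ccl3 UMIs.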

How the results depend on the processing

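Apart from the settings that leave out a library, 269 of 291 values of a member between classes and 202 of 218 between groups kept their direction and their side of the threshold. With no filter on low counts edgeR called 18 genes between groups in C1q macrophages, 14 in CD4 T, 7 in CD8 T, 35 in DETC-gated, 6 in NK, 3 in NKT-like T, 16 in Treg, 19 in cDC, 24 in gamma delta 17 T, 40 in monocytes and 6 in neutrophils. That setting also called Ccl5 between groups in DETC-gated cells (-1.60), cDC (-2.09) and monocytes (-2.15), Ccl5 for monocytes (-0.76) and osteoclast-like macrophages (-1.98) against C1q macrophages, and 2 members for NK against CD8 T cells (Ccl3 1.25, Ccl5 -0.31), 4 for CD8 against CD4 T, 4 for DETC against gamma delta 17 T and 2 for NKT-like against CD4 T cells. DESeq2 called 2 genes in CD4 T cells and 1 member each for cDC and osteoclast-like macrophages against C1q macrophages, with Ccl4 (-1.56) and Ccl5 (-1.72) of cDC and Ccl3 (-3.41) of osteoclast-like macrophages no longer past the threshold. Without the library block 1 member was called for cDC and 1 for monocytes against C1q macrophages, with Ccl4 at -1.11 and Ccl5 at -0.70 in the first and Ccl4 at -1.47 and Ccr1 at 0.62 in the second.

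With Leiden clusters 0 genes were called between groups in CD8 T cells and 2 members between NK and CD8 T cells (Ccl3 2.10, Ccl5 -1.03). Ccl3 for NK against CD4 T lost its call (1.03), Ccl5 for monocytes (-3.37) and Ccr1 for cDC (-0.47) against C1q macrophages gained one, Ccl5 turned to -2.72 for DETC against gamma delta 17 T and to -0.74 for Treg against CD4 T, and the group change turned for Ccl4 in C1q macrophages (-0.12), cDC (0.27) and monocytes (0.33) and for Ccr1 in CD4 T cells (-0.054). With no upper limit on genes 0 genes were called in CD8 T cells, 2 members for DETC against gamma delta 17 T and 1 for NK against CD8 T (Ccl5 -0.42). Ccl5 of osteoclast-like against C1q macrophages passed (-4.08), and the group change turned for Ccl3 in C1q macrophages (0.084), Ccl4 in NK (0.089) and cDC (0.13), and Ccr1 in CD4 T (-0.047) and gamma delta 17 T cells (-0.051). Stricter gates turned Ccl3 between groups in cDC (1.30) and Ccl5 for NK against CD8 T (0.042) and Treg against CD4 T (-0.0066). The cause was not tested for any of these.

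The titles give the replicate numbers only as numbers, but the letters of the matrix names follow them. What same-numbered libraries share was not tested, so a block on the number could also remove a difference that the letters mark. The deviations of same-numbered libraries correlated between -0.248 and 0.110 over the 12 classes. With the replicate number as a block the pairing called 4 genes in CD4 T, 23 in DETC-gated and 7 in NK cells, Ccl5 in DETC-gated cells passed (-1.40, edgeR adjusted p = 0.000257) and Ccl4 in neutrophils turned (0.13), and no other call of a member changed. With the numbers crossed, chosen after seeing the data because 5 classes lay under -0.1, 12 genes were called in NK cells, among them Ccl5 (-0.81).

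Leaving out 1 library at a time left a group with 1 sample, which edgeR then assumes to vary like the other group. The genes called between groups ranged from 3 to 52 in C1q macrophages, 0 to 57 in CD4 T, 0 to 23 in CD8 T, 8 to 107 in DETC-gated, 1 to 23 in ILC2, 0 to 17 in NK, 0 to 39 in NKT-like T, 0 to 38 in Treg, 2 to 77 in cDC, 0 to 129 in gamma delta 17 T, 0 to 250 in monocytes and 0 to 12 in neutrophils. The group change of Ccl3 ranged from -0.52 to 0.25 in C1q macrophages, -1.61 to 0.37 in NK, -0.16 to 1.54 in neutrophils, -1.73 to 3.72 in CD8 T and -0.36 to 0.91 in monocytes. That of Ccl4 ranged from -1.91 to 1.19 in CD8 T, -1.51 to 1.37 in NK, -3.45 to 0.79 in cDC, -1.89 to 0.46 in monocytes, -1.13 to 1.84 in neutrophils and -0.39 to 0.50 in C1q macrophages. That of Ccl5 ranged from -2.27 to 0.78 in C1q macrophages, -2.25 to -0.48 in DETC-gated, -0.89 to 0.021 in NKT-like T, -2.54 to -0.55 in Treg, -3.20 to 3.41 in cDC, -3.41 to 1.57 in monocytes, -1.30 to -0.31 in CD8 T and -1.14 to -0.49 in NK cells. That of Ccr1 ranged from -0.15 to 1.86 in C1q macrophages, -0.60 to 6.80 in CD4 T, -0.48 to 2.26 in gamma delta 17 T, -0.10 to 1.37 in monocytes, -0.42 to 1.20 in neutrophils and 0.21 to 1.81 in cDC. Between classes Ccl5 ranged from -0.42 to -0.24 for NK against CD8 T, -0.20 to 0.37 for Treg against CD4 T, and -4.56 to -1.30, -4.39 to -1.39 and -2.42 to -0.90 for osteoclast-like macrophages, basophils and cDC against C1q macrophages, and Ccl3 from 0.85 to 2.29 for NK against CD8 T. Members called ranged from 1 to 2 for DETC against gamma delta 17 T and from 0 to 1 for NK against CD8 T. With 2 libraries a group and at most 58 basophils in a library, depth limits what can be said of treatment for these genes. The labels limit it too, since the groups rest on the sample titles alone.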

Other observations

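The 529 cells with over 3000 genes that met the mitochondrial limit were not used above. They held Ccl3 at 81.9, 59.3, 24.2 and 259 CPM and Ccl4 at 157, 129, 23.6 and 433 CPM, Control libraries before hucMSC-Exo libraries. The 1319 kept cells that met no gate held 9.05%, 1.93%, 8.37% and 4.70% of the Ccl3 UMIs of these libraries and 14.8%, 20.9%, 21.3% and 31.4% of the Ccl5 UMIs.

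Detection depended on depth. When each cell was thinned to 1000 UMIs, the mean share of cells with a UMI moved by more than the spread between libraries in 22 of 68 combinations of member and class. The mean share with Ccr1 was then 69.2% in neutrophils, 33.7% in monocytes and 23.9% in C1q macrophages.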
